A study of Drosophila melanogaster with 36 samples.

Results

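The transcripts described here are 150 of the 16637 measured on 36 one-colour NimbleGen arrays, and they were chosen for low values on 4 male arrays, replicate C of SIM1, replicate B of REC and replicates A and B of INV1. For every transcript, the mean log2 intensity of the 13 other male arrays, without replicate A of REV1, was subtracted from the mean of these 4. The 200 transcripts with the highest male minus female difference of medians were left out, and the 150 with the lowest value among the rest were taken. Since the measured values themselves chose the members, and since the 4 arrays had been picked because they deviated alike, the male difference is given below as a description and supports nothing.

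Each array measured total RNA from 50 virgin adults of one sex and strain, frozen together at an age of 5 to 7 days, and every strain had replicates A, B and C in each sex. All strains are homozygous and carry the white-eye allele w1118. INV1 and INV2 hold the inversion In(2R)51F11-56E2, which breaks a region of conserved gene order, and have red eyes. REC, also red-eyed, holds the intact elements from which the inversion was made, P{RS5}5-HA-1995 together with P{RS3}CB-0236-3, on one chromosome in standard order, before any heat shock. SIM1, which went through the same heat shocks without inverting, and REV1 and REV2, in which the inversion was turned back, are white-eyed, in standard order, and keep derivatives of both elements. Each strain is a single engineered line, so that strain and line cannot be told apart.

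RNA of a frozen adult is a mixture over all its organs. In *Drosophila*, adult males and females differ in the expression of a large part of their genes, mostly because testis, male accessory gland and ovary transcribe many genes that few other tissues use. A level in such a mixture therefore reflects both how much of an organ is present and how active a gene is in it, and in these bulk samples fewer cells of a type and less RNA per cell cannot be told apart. The arrays list transcripts by FlyBase identifier without gene names. A gene table matched 44 of the 16637 identifiers (0.264%), and 0 of the 150 members were among them, so that neither gene names, roles nor sequences are given, and markers of single organs could not be looked up.

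Values below are log2 of the deposited fluorescence intensities. Within a sex the arrays share nearly one distribution, with an array median of 10.95 in males and 10.39 in females. A higher level in males than in females is thus partly a matter of scale. The arrays of a strain are separate samples, and their number limits the precision of every comparison.

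By the difference that chose them, the members lay between 2.05 and 1.13 log2 units lower on the 4 arrays than on the 13 others, which is 4.15-fold to 2.20-fold, with a median of -1.36 (2.56-fold). Over all transcripts the median of that difference was 0.01 and its SD was 0.52. The last member had a difference of -1.134 and the first transcript outside the list had -1.134 as well, so the list has no natural edge. The exclusion for male bias took 1 transcript, with a difference of -1.76, out of the lowest 150. The last transcript that it left out and the first that it kept had male minus female differences of 5.483 and 5.481.

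The median log2 intensity of the 150 members was 9.94 on INV1 A, 9.96 on INV1 B, 9.61 on REC B and 9.64 on SIM1 C. On the 13 other male arrays it lay between 10.48 and 12.01, with a median of 11.18. These sets of array medians do not overlap. For 137 of the 150 members all 4 arrays lay below all 13 others, which holds for 19.2% of all transcripts. The rule used that contrast, and nothing is read from this count. Against the mean of the 13, the median log2 difference of the members was -1.62 on REC B, -1.53 on SIM1 C, -1.27 on INV1 A and -1.17 on INV1 B. REC B and SIM1 C, from a red-eyed and a white-eyed strain, were thus the lowest, and every member lay below the mean of the 13 on each of the 4 arrays.

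**Figure D1:**
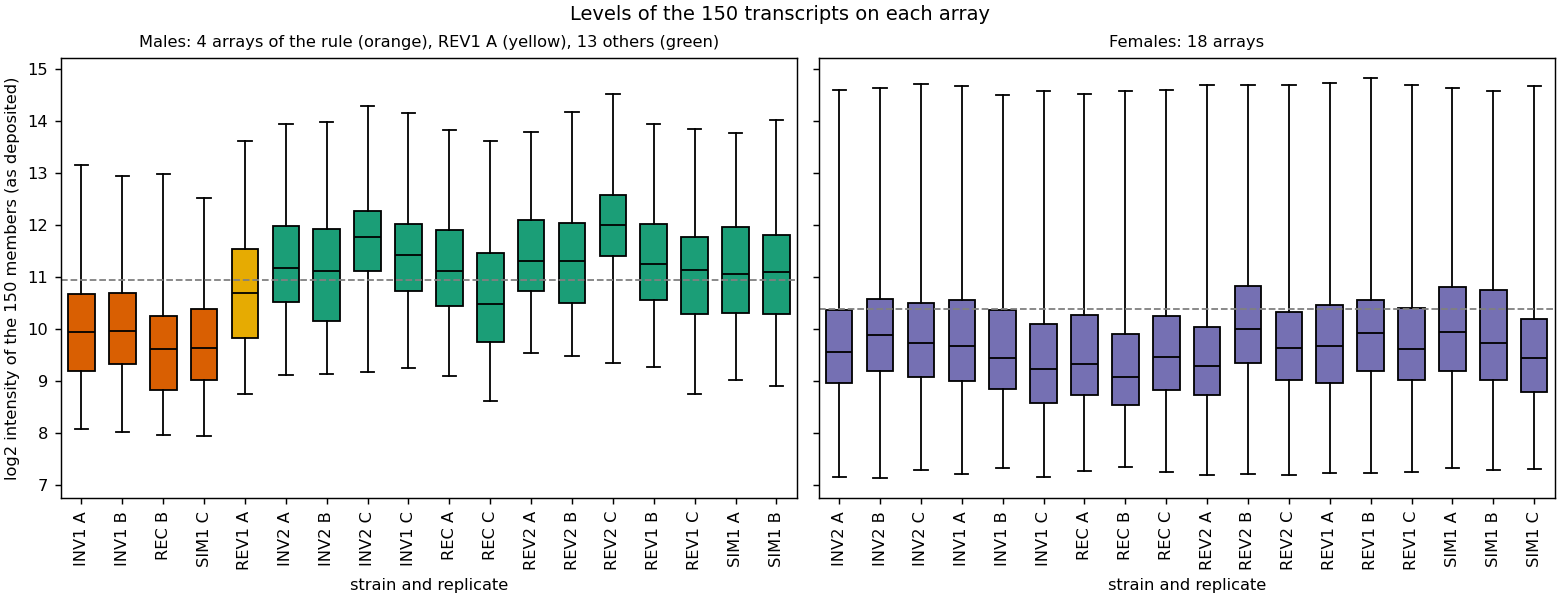
Log2 intensity of the 150 members on each male array (left; the 4 arrays of the rule, REV1 A, then the 13 others) and each female array (right). Boxes give the quartiles and median, whiskers the lowest and highest member, and the dashed line the median of all transcripts of that sex; the 4 arrays have member medians of 9.61 to 9.96, against 10.48 to 12.01 on the 13 others.

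The choice was repeated with 1 of the 4 arrays left out of the male difference, so that 150 transcripts were chosen by the other 3. On REC B the 150 then chosen had a median difference from the 13 others of -1.58, on INV1 A of -1.27, on INV1 B of -1.15 and on SIM1 C of -1.44, whereas the median over all transcripts was 0.00, 0.02, -0.01 and -0.01. The array left out lay below the mean of the 13 others in all 150 transcripts on REC B, INV1 A and INV1 B and in 148 of 150 on SIM1 C. Of the 150 members, 133 were chosen again without REC B, 143 without INV1 A, 134 without INV1 B and 135 without SIM1 C. The 4 arrays had been picked for deviating alike, so these values describe their likeness and are no test of it.

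FBtr0113798 had the lowest difference of all members (-2.05). Its log2 intensity was 10.20 on INV1 A, 10.16 on INV1 B, 10.08 on REC B and 9.74 on SIM1 C. On the 13 other male arrays the lowest value was 11.79, the median 12.07 and the highest 12.58. The 4 arrays were close together (SD 0.21), the 13 others as well (SD 0.20), and a gap without any array lay between them. On female arrays this transcript had 8.95 at the lowest, 9.60 in the median and 10.001 at the highest. The scale differs between the sexes, and the place of the 4 arrays among the female ones turns with it. In log2 intensity they stood in the upper part of the female range or above it. By percentile rank among all transcripts of the same array they lay at 27.7 to 35.4, against 35.3 to 46.3 on female arrays, at the bottom of the female range or below it.

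FBtr0091895 was next, with a difference of -2.00. Its log2 intensity was 10.89 on INV1 A, 11.02 on INV1 B, 9.30 on REC B and 10.49 on SIM1 C, against a lowest value of 11.08, a median of 12.42 and a highest value of 13.57 on the 13 others. The spread within both sets was wide here (SD 0.78 over the 4 and 0.63 over the 13), and the highest of the 4, INV1 B, came close to the lowest of the 13, REC C. In females it had 12.46 at the lowest, 12.87 in the median and 13.27 at the highest, and all 4 arrays of the rule lay below all 18 female arrays. The members thus include transcripts with a sharp step and transcripts with a graded one.

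REV1 A, which the male difference did not use, lay between these sets. Its member median was 10.69. In 133 of 150 members REV1 A was lower than both other REV1 arrays, whereas this holds for 40.2% of all transcripts. The median member was -0.48 relative to the mean of REV1 B and C, and the median over all transcripts was -0.01. REV1 B and C are among the 13 arrays whose high values the rule favours, so the values relative to them are a description only. REV1 A lay below the mean of the 13 others in 144 members (all transcripts, 52.1%), which the rule favours through the high values of the 13. REV1 A lay above all 4 arrays of the rule in 141 members, which the rule favours too, and below all 13 others in 33. The shares over all transcripts were not computed for the last counts, and nothing is read from them.

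The 13 other male arrays, whose mean the rule used, were not alike in these transcripts either. A high value on a single array raises that mean, which the rule favours, so the following values are a description only. REC C had the lowest value of the 13 in 119 of 150 members (all transcripts, 11.6%), with a median of -0.76 relative to the mean of the rest of the 13. REV2 C had the highest in 121 (all transcripts, 15.3%), with a median of 0.84. INV2 C lay above the mean of the rest in 140 members (all transcripts, 49.0%), with a median of 0.54. Arranged by member median, the male arrays therefore ran from REC B, SIM1 C, INV1 A and INV1 B through REC C and REV1 A and a middle set between 11.06 and 11.43 to INV2 C (11.77) and REV2 C (12.01). Both ends hold red-eyed and white-eyed strains. The SD within a strain over the 13 arrays had a median of 0.36 for the members and 0.12 for all transcripts, and it exceeded the 90th percentile of all transcripts (0.23) in 106 members.

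By strain, in which the chosen arrays weigh heavily, the mean of the array medians in males was 11.36 ± 0.36 in INV2, 10.44 ± 0.85 in INV1, 10.40 ± 0.76 in REC, 11.54 ± 0.40 in REV2, 11.02 ± 0.29 in REV1 and 10.60 ± 0.83 in SIM1 (SD, n = 3 arrays each). Without the 4 arrays of the rule, it was 11.43 in INV1 (n = 1), 10.80 in REC (n = 2) and 11.08 in SIM1 (n = 2). Without them INV1 and SIM1 males came within the range of the other strains, and REC males had the lowest mean. Across the 6 strains in males, limma called 0 of the 150 members at an adjusted p under 0.01, where 0.0781% of all transcripts were called. At an unadjusted p under 0.05 it was 15 members, against 19.6% of all transcripts. With array weights the count was 77, against 47.1% of all transcripts, and in a fit without the 4 arrays and REV1 A it was 0. The rule used these male arrays and favours members whose replicates differ within INV1, REC and SIM1. The male counts are therefore a description and support nothing on strain.

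**Figure D2:**
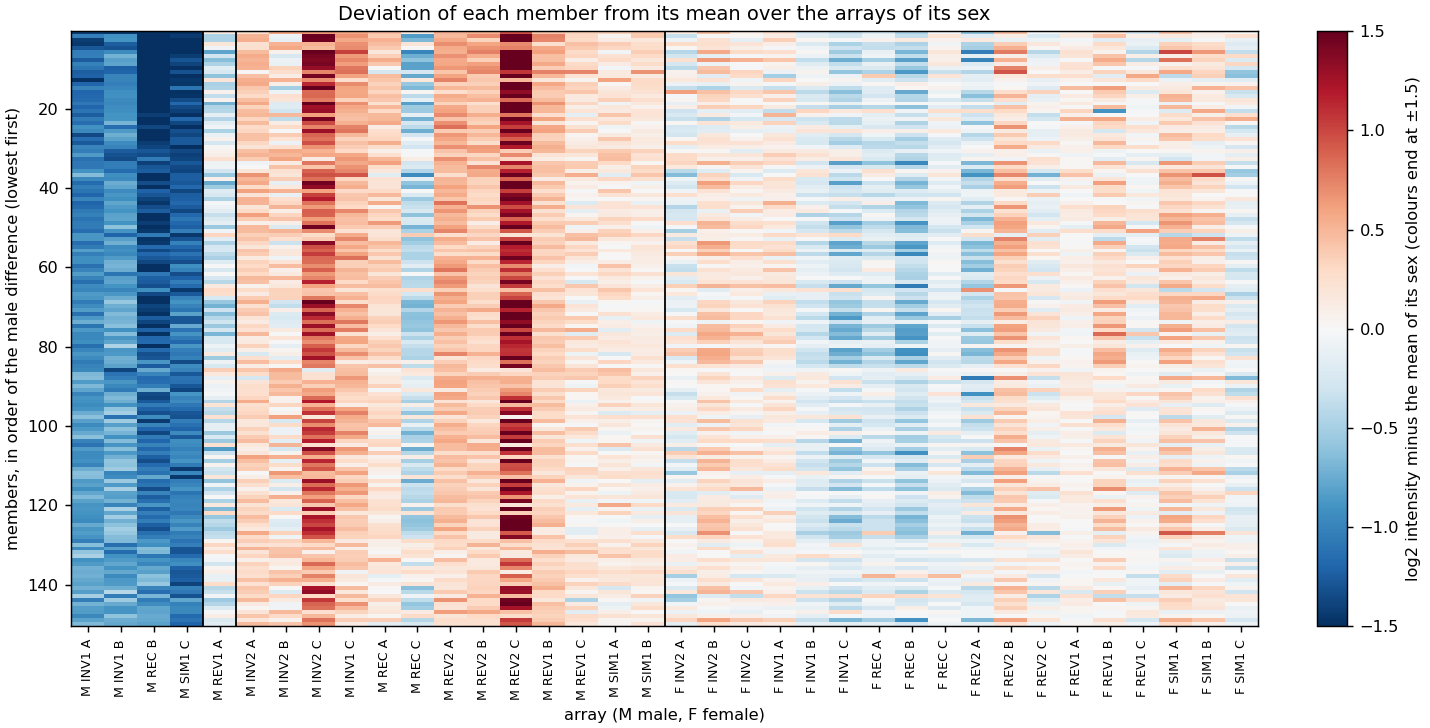
Log2 intensity of each member (rows, lowest male difference at the top) minus its mean over the 18 arrays of the same sex (blue lower, red higher). From left to right the columns are the 4 male arrays of the rule, REV1 A, the 13 other male arrays and the 18 female arrays; INV2 C and REV2 C stand out in red among males, with medians of 0.54 and 0.84 above the rest of the 13, and REC B, INV1 C and REV2 A in blue among females, with medians of -0.37, -0.31 and -0.26.

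Female arrays took no part in the male difference. In females the members were of moderate level, with a median over members of 9.55 and a range from 7.24 to 14.65, against a median of 10.38 over all transcripts. When all transcripts were ranked by female mean and divided into 4 classes of equal size, 15 members fell in the dimmest, 99 in the next, 29 in the third and 7 in the brightest. On the 13 other male arrays their median was 11.27, with 1, 57, 66 and 26 members in these classes from dim to bright, ranked on the same arrays. On the 4 arrays it was 9.81, with 64, 69, 14 and 3. Few members were in the dimmest class in females or on the 13 male arrays, and 64 were on the 4 arrays. The rule favours high values on the 13 and low values on the 4, so the male classes are a description only.

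Most members were higher in males than in females, which the rule limits from above by the transcripts it left out and favours through the high values of the 13 male arrays, so the following is a description. The male minus female difference of medians over 18 arrays each had a median of 1.11 over members and of 0.37 over all transcripts, and 143 of 150 members were above 0, against 60.8% of all transcripts. Members ranged from -1.10 to 4.44. After scale normalization over all 36 arrays the medians were 0.54 and -0.12, with 130 members above 0 (all transcripts, 45.5%). After quantile normalization they were 0.63 and -0.21, with 96 members above 0 (all transcripts, 39.6%). Relative to the shift of all transcripts, the members' median was 0.75, 0.66 and 0.84 higher under these settings. The direction of single members thus depends on the scaling between sexes.

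On the 4 arrays of the rule, the members' median difference from the female median was -0.06 in log2 intensity, whereas all transcripts had 0.36. Above 0 were 65 members (all transcripts, 62.0%). After subtracting the median of all transcripts, the members on the 4 arrays stood at -0.42 relative to females. Choosing members for low values on these 4 arrays favours such a low standing. This value and the following ones are therefore a description only. The percentile rank of the member median was 25.8 to 31.4 on the 4 arrays, below all 18 female arrays (36.9 to 46.2). In 111 members the 4 arrays overlapped the range of the female arrays, in 29 all 4 lay above all female arrays and in 10 all 4 lay below. Over all transcripts these shares were 23.2% (overlap), 49.8% (all 4 above) and 27.0% (all 4 below). The 13 other male arrays lay above all 18 female arrays in 86 members, and in 44.2% of all transcripts. These shares compare scales that were set separately in each sex. The part of reproductive organs in these differences was not tested, since their markers could not be matched to identifiers.

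**Figure D3:**
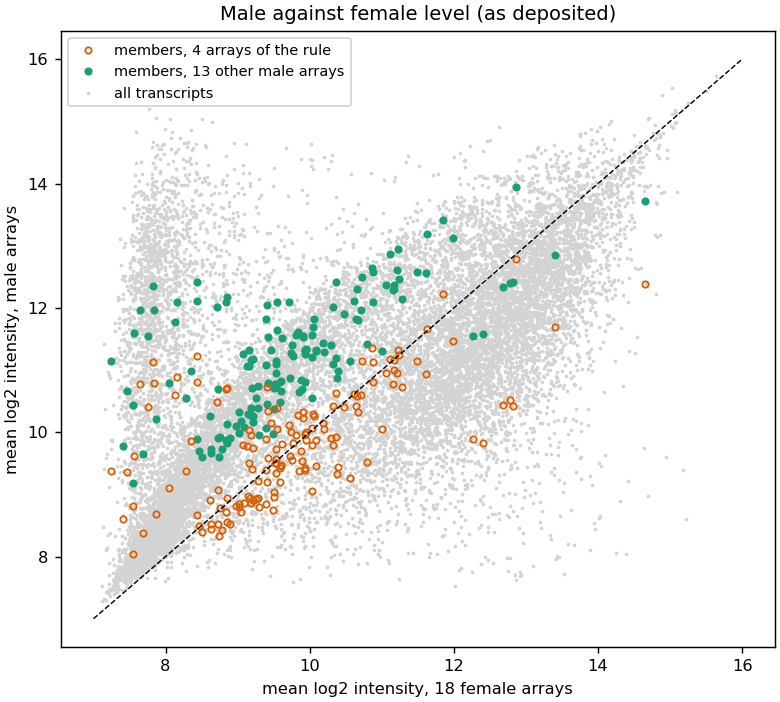
Mean log2 intensity on male arrays (vertical axis) against the mean of the 18 female arrays (horizontal axis), with each member drawn for the 4 arrays of the rule (open) and for the 13 others (filled), and all transcripts in grey for the 13 others. The dashed line marks equal values; the medians over members are 9.81 on the 4 arrays, 11.27 on the 13 others and 9.55 in females.

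The members also varied more than most transcripts among female arrays of one strain. The SD within strains over the 18 female arrays had a median of 0.24 over members and 0.11 over all transcripts. It exceeded the 90th percentile of all transcripts (0.19), above which 10% of all transcripts lie by construction, in 97 of 150 members, and the median of all transcripts in 130. The lowest member had an SD of 0.05 and the highest of 0.59.

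They varied together. In each strain one female array was the lowest of its 3 for most members. This was replicate A of INV2 in 106 of 150 members (all transcripts, 37.9%), replicate C of INV1 in 124 (26.4%), replicate B of REC in 123 (33.9%), replicate A of REV2 in 116 (28.8%), replicate C of REV1 in 84 (29.4%) and replicate C of SIM1 in 110 (36.8%). Over all transcripts no array was the lowest of its strain in more than 41.1%. REC B had the lowest value of all 18 female arrays in 61 members (all transcripts, 7.59%), and REV2 B the highest in 47 (all transcripts, 6.43%). The median member lay at -0.37 on REC B, -0.31 on INV1 C and -0.26 on REV2 A relative to its female mean, and at 0.34 on REV2 B, 0.29 on SIM1 A and 0.22 on REV1 B. The differences between female arrays were smaller than those between male arrays, and the low end again held red-eyed and white-eyed strains.

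**Figure D4:**
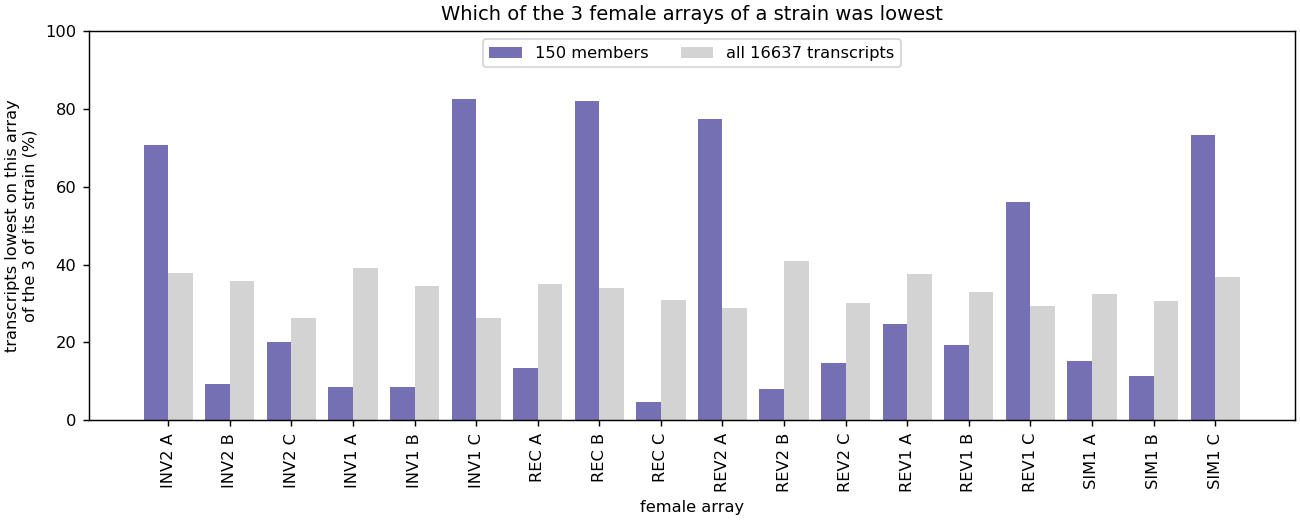
Share of the 150 members (purple) and of all 16637 transcripts (grey) that were lowest on a given female array among the 3 arrays of its strain. INV1 C and REC B were lowest of their strain for 124 and 123 members, whereas no array reached more than 41.1% over all transcripts.

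By the methods, the strains were bred in 3 low-density crosses and the progeny was separated by sex. Males and females of a strain thus came from the same set of crosses. Both sexes carry the same replicate letters, and whether a letter marks one cross is not given. The female arrays with the strain and letter of the 4 male arrays (SIM1 C, REC B, and replicates A and B of INV1) were compared with the other female arrays, with strain in the model. limma called 0 of 150 members and 0% of all transcripts. At an unadjusted p under 0.05 it was 4 members, against 2.24% of all transcripts. The median member difference was -0.08 (all transcripts, 0.00), and it was -0.30 without INV1 C, 0.01 without REC B and 0.02 without SIM1 C. In REC and SIM1 the female array of the same letter was the lowest of its strain, and in INV1 it was replicate C, the letter that was high in males. A difference between the sexes in this respect was not tested.

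The members differed in how far they deviated on the male arrays outside the rule. On REV2 C, 110 of 150 members lay more than 0.5 above the mean of the rest of the 13 arrays, against 6.33% of all transcripts, and 40 did not. This division was made after the values were seen, and 13 members lie within 0.1 of it, so it is given as a description only and does not show separate classes. The means from which REC C and INV2 C are measured include REV2 C. The 110 had a median of 0.65 on INV2 C, -0.86 on REC C and an SD within strains in females of 0.29. The 40 had 0.14 on INV2 C, -0.23 on REC C and an SD in females of 0.13, near that of all transcripts (0.11). In females the 110 lay at -0.31 on REC B relative to REC A and C, at -0.32 on INV1 C and at -0.54 on REV2 A relative to the other arrays of these strains. The 40 lay at -0.14, -0.09 and -0.15. The male difference had a median of -1.39 in the 110 and -1.29 in the 40, and the 40 had the larger male minus female difference (1.83, against 0.97 in the 110).

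The identifiers of the members were unevenly spread. Identifiers that begin with FBtr011 made up 84 of 150 members (56%) and 9.85% of all transcripts, and 5.13% of the transcripts with such an identifier were members. Those beginning with FBtr0113 and FBtr0114 supplied 32 and 43 members, out of 593 and 299 on the array. Identifiers beginning with FBtr007 and FBtr008, which hold 43.0% and 41.0% of all transcripts, supplied 33 and 24 members. The rule did not use identifiers. What these series of numbers stand for is not given in the sources used here. The transcripts with an FBtr011 identifier had a median of 8.95 in females, against 10.7 in both FBtr007 and FBtr008, and a median male difference of -0.13. Low female medians were not particular to FBtr011. They were 8.87 in FBtr009, 9.01 in FBtr027, 9.12 in FBtr028 and 9.34 in FBtr029. Of the transcripts in these 4 series, 2.0%, 1.0%, 2.5% and 0% were members. Members within FBtr011 had a median male difference of -1.43, a median of 11.22 on the 13 other male arrays and an SD within strains in females of 0.24. The division on REV2 C did not follow FBtr011, which supplied 64 of the 110 and 20 of the 40.

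Of the 150 members, 41 had a neighbouring number that was also a member, in 15 groups of consecutive numbers, the longest of which held 6. Neighbouring identifiers can belong to one gene and share probes, so members may not be independent. Which members share a gene or probe could not be looked up. No 2 members had values within 0.1 of each other on every array, and 85 pairs of members were within 0.5 on all 36.

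**Figure D5:**
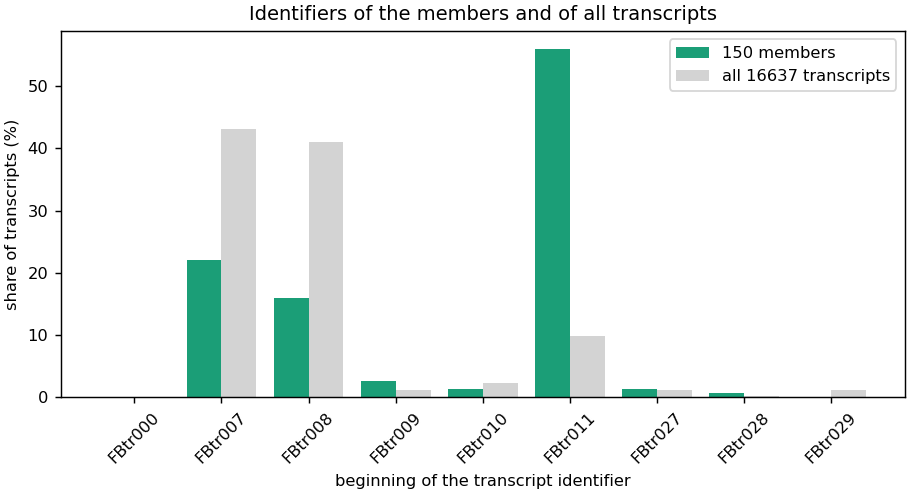
Share of the 150 members (green) and of all 16637 transcripts (grey) by the first digits of the FlyBase transcript identifier. FBtr011 holds 56% of the members and 9.85% of all transcripts.

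Strain differences in females were tested across all transcripts, and female arrays did not enter the male difference that chose the members. Their medians entered the rule only through the exclusion for male bias. The equality of the 6 strain means was rejected by limma (adjusted p under 0.01) in 8 of 150 members (5.33%), against 10.1% of all transcripts, a smaller share than on the whole array. At an unadjusted p under 0.05 it was 44 members, against 39% of all transcripts. The mean of array medians in females was 9.72 ± 0.17 in INV2, 9.45 ± 0.23 in INV1, 9.29 ± 0.19 in REC, 9.64 ± 0.35 in REV2, 9.73 ± 0.16 in REV1 and 9.70 ± 0.25 in SIM1 (SD, n = 3 arrays each). REC was the lowest, with array medians of 9.08 to 9.46 that lay below all arrays of INV2 and REV1 and overlapped those of INV1, REV2 and SIM1. The count of 8 became 4 without replicate A or C of REC (all transcripts, 6.04% and 7.59%) and 3 without replicate B of REC (6.03%). It was 42 with array weights, where 28.6% of all transcripts were called.

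FBtr0085894 and FBtr0091822 had the lowest p of these 8 and resembled each other. FBtr0085894 had a log2 intensity of 12.06 ± 0.12 in INV2, 12.09 ± 0.09 in INV1, 12.37 ± 0.14 in REC, 12.32 ± 0.11 in REV2, 12.82 ± 0.25 in REV1 and 12.77 ± 0.20 in SIM1 females (SD, n = 3 arrays each; limma adjusted p = 0.000872). FBtr0091822 had 11.91 ± 0.10 in INV2, 11.94 ± 0.08 in INV1, 12.26 ± 0.14 in REC, 12.14 ± 0.19 in REV2, 12.67 ± 0.26 in REV1 and 12.64 ± 0.19 in SIM1 (SD, n = 3 arrays each; limma adjusted p = 0.00117). Both were lowest in the INV strains and highest in REV1 and SIM1. Each was called under all 26 other settings run.

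INV females were set against REC females, which compares the disrupted with the intact region within red eyes. INV also went through heat shocks and REC did not, and INV carries recombined forms of the elements that REC holds intact. Heat shock and element state cannot be told apart from the disruption here. The contrast called 3 of 150 members (2%), against 1.76% of all transcripts, all 3 higher in INV. FBtr0081972 had 10.34, 10.51 and 10.41 in INV2 and 10.57, 10.38 and 10.56 in INV1, against 9.99, 9.86 and 9.996 in REC (replicates A, B and C), and the arrays do not overlap. INV was higher by 0.51 (standard error 0.0766; adjusted p = 0.00175 in limma). In this transcript the white-eyed strains, whose region is intact as well, had means of 10.27 in REV2, 10.40 in REV1 and 10.42 in SIM1, near those of INV. INV minus white-eyed strains was 0.10 (adjusted p = 0.304 in limma) and REC minus white-eyed strains was -0.41 (adjusted p = 0.00215 in limma). FBtr0114293 had 10.61, 10.50 and 10.50 in INV2 and 10.69, 10.55 and 10.40 in INV1, against 10.16, 9.90 and 10.13 in REC, again with no overlap. INV was higher by 0.48 (standard error 0.073; adjusted p = 0.00176 in limma). The third differed by 0.44 and was called under 10 of the 26 other settings, FBtr0081972 under 24 and FBtr0114293 under 25. Over the members the median difference was 0.22 (all transcripts, 0.01), with 124 of 150 above 0 against 53.9% of all transcripts, and it lay between 0.15 (without REC B) and 0.27 with single arrays left out. At an unadjusted p under 0.05, 47 members were found, against 26.2% of all transcripts. The count of 3 became 1 without replicate A of REC (all transcripts, 0.313%), 0 without its B (0.162%) and 5 without replicate B of REV2 (2.83%), and with array weights it was 9 (9.89%).

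REC females were also set against the white-eyed strains, which differ from REC in eye colour while the region is intact in both. The white-eyed strains also went through heat shocks and keep only derivatives of the elements. Eye colour, heat shock and element state cannot be told apart here. The contrast called 5 of 150 members, against 3.69% of all transcripts, all 5 lower in REC. FBtr0114177 had 10.40, 10.03 and 10.33 in REC (replicates A, B and C), against a lowest value of 10.50, a median of 10.95 and a highest of 11.27 over the 9 white-eyed arrays, with no overlap. The log2 difference was -0.67 (standard error 0.143; adjusted p = 0.00729 in limma), called under 14 of the 26 other settings. FBtr0113982 had 8.81, 8.75 and 8.92 in REC, against 9.02, 9.23 and 9.50 over the white-eyed arrays (lowest, median and highest), which do not overlap either. Its log2 difference was -0.44 (standard error 0.0913; adjusted p = 0.0067 in limma), called under 19 of the 26. In FBtr0113982 the other red-eyed strains differed from each other, with means of 9.33 in INV2 and 8.90 in INV1. INV minus white-eyed strains was -0.15 in FBtr0113982 (adjusted p = 0.214 in limma) and -0.44 in FBtr0114177 (adjusted p = 0.0193 in limma). The 3 others differed by -0.41, -0.32 and -0.24. The median over members was -0.27 (all transcripts, -0.01), with 135 of 150 below 0 against 54.7% of all transcripts, and it lay between -0.32 and -0.20 with single arrays left out. At an unadjusted p under 0.05, 80 members were found, against 28.6% of all transcripts. This contrast and the previous one share the REC arrays, of which replicate B was the lowest female array for 61 members, and the part of that array and of strain in the shift cannot be told apart with 3 arrays. The count of 5 became 0 without replicate A or B of REC (all transcripts, 0.781% and 0.799%), 2 without its C (2.1%), and 3 without SIM1 A (3.96%), SIM1 B (3.5%) or REV1 B (2.61%). With array weights it was 17 (11.7%).

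INV females were set against the white-eyed strains as well. The 2 sets differ in the disrupted region, in eye colour and in the state of the elements, which cannot be told apart here. The contrast called 3 of 150 members (2%), against 4.4% of all transcripts, with 1 higher and 2 lower in INV. FBtr0085894 had a lowest value of 11.94, a median of 12.05 and a highest of 12.20 over the 6 INV arrays, against 12.21, 12.54 and 13.03 over the 9 white-eyed arrays, which do not overlap. The log2 difference was -0.56 (standard error 0.0778; adjusted p = 0.000307 in limma). FBtr0091822, whose arrays overlap slightly, differed by -0.56 (limma adjusted p = 0.000507) and FBtr0114293 by 0.28 (limma adjusted p = 0.00348), and these were named after their values were seen. At an unadjusted p under 0.05, 14 members were found, against 26.5% of all transcripts. The median over members was -0.08 (all transcripts, -0.01). The count of 3 became 5 without replicate C of REV2 (all transcripts, 6.7%) and with array weights (6.77%). In both contrasts with white-eyed strains the same white-eyed arrays serve.

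Between equivalent strains limma called 0 of 150 members. For INV2 minus INV1 it called 0.162% of all transcripts, and at an unadjusted p under 0.05 there were 33 members, against 17.9% of all transcripts, with a median difference over members of 0.18. This median was 0.09 without replicate C of INV1. With array weights 5 members were called (all transcripts, 2.53%). For REV2 minus REV1, 0.00601% of all transcripts were called, and 8 members passed an unadjusted p under 0.05, against 9.94%. The median of -0.06 became -0.24 without replicate B of REV2, 0.06 without its A and 0.02 without replicate B of REV1. For the REV strains minus SIM1, 2.89% of all transcripts were called, and 17 members passed an unadjusted p under 0.05, against 26%. The median was -0.07, and it was 0.04 without replicate A of SIM1 and 0.03 without replicate A of REV2. The count for REV minus SIM1 was 1 without replicate C of SIM1 (all transcripts, 5.72%), 3 without replicate B of REV2 (5.03%) and 4 with array weights (9.86%).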

How the data were processed

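Deposited by the authors was 1 fluorescence intensity per transcript and array, on a linear scale (135 to 54214). By the methods, an array service labelled, hybridized, scanned and extracted the arrays, whose transcripts follow annotation release 5.7. The authors log-transformed the probe values, took their median for each transcript and used limma's scale method between arrays. Sorted values of one sex are nearly equal on its 18 arrays, as quantile normalization would leave them. Background correction is not given in the sources used here. Intensities were converted to log2 without further normalization. Within each sex, all 16637 transcripts were fitted with 1 mean per strain by lmFit and eBayes of limma 3.58.1 (R 4.3.3). A call is a Benjamini-Hochberg adjusted p under 0.01. Other computations used Python 3.11.15. Tests were tested on simulated data.

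The members, lists and rules were chosen with earlier results of these data known. Named were the 2 members with the lowest male difference and, per female comparison, up to 2 called members per direction whose arrays do not overlap. Fewer than 1 in 100 identifiers could be paired with a gene (table of assembly Release 6), so marker lists of organs were not used. Replicate letters showed no clear pairing of female arrays across strains, and the male arrays were not checked for this. Alternatives were another normalization, filter, variance model, array weights, replicate block, threshold and test, and leaving out each array. Signal over background could not be measured in values without control probes.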

Additional observations from a re-analysis of the deposited data

How the results depend on the processing

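Beside each count of called members, the share of all transcripts called under the same setting is given in parentheses. With array weights they were 42 (28.6%) for the female strain test, 9 (9.89%) for INV minus REC, 5 (6.77%) for INV minus white-eyed strains, 17 (11.7%) for REC minus white-eyed strains, 5 (2.53%) for INV2 minus INV1, 4 (9.86%) for REV minus SIM1 and 77 (47.1%) for the male strain test. At an adjusted p under 0.05 they were 22 (25%) for the strain test, 8 (8.4%) for INV minus REC, 5 (11.8%) for INV minus white-eyed strains, 19 (11.8%) for REC minus white-eyed strains and 6 (9.95%) for REV minus SIM1. A one-way comparison without moderation called 3 (3.97%) in the strain test and 2 (1.77%) in REC minus white-eyed strains, where quantile normalization called 3 (2.97%) and an intensity trend with robust hyperparameters 3 (3.25%). The cause of these changes was not tested.

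With single arrays left out, the counts ranged from 3 to 12 (6.03 to 13.7%) for the strain test, from 0 to 5 (0.162 to 2.83%) for INV minus REC, from 2 to 5 (2.33 to 6.7%) for INV minus white-eyed strains, from 0 to 7 (0.781 to 4.68%) for REC minus white-eyed strains and from 0 to 3 (0.18 to 5.72%) for REV minus SIM1. The lowest and highest shares need not come from the arrays that gave the lowest and highest counts. The median difference of the members, added after seeing the data, ranged from -0.236 to 0.056 for REV2 minus REV1, from -0.152 to 0.0419 for REV minus SIM1 and from -0.296 to 0.0225 for the female arrays that share strain and letter with the 4 male arrays. Its sign turned without REV1 B (0.0207) or REV2 A (0.056) in the first, without SIM1 A (0.0419) or REV2 A (0.0281) in the second, and without REC B (0.00564) or SIM1 C (0.0225) in the third. It kept its sign in the other 4 contrasts.

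The letters showed no clear pairing of female arrays across strains. Correlations between female arrays of one letter lay between -0.32 and 0.53, with medians of -0.05 (A), -0.03 (B) and 0.00 (C). Of 18 arrays, 7 correlated best with one of their own letter, and no chance level was computed. Since only different strains were compared, this cannot decide whether a letter marks one cross within a strain. With the replicate block, 7 members (9.9%) were called in the strain test, 3 (1.79%) in INV minus REC, 3 (4.48%) in INV minus white-eyed strains and 4 (3.63%) in REC minus white-eyed strains. Of the 150 members, quantile normalization kept 105, medians in place of means 128, and comparison within strains 126.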
